A study of Mus musculus with 4 samples.

Results

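The pre-B receptor and B specification genes are 9 genes that commit a lymphoid progenitor to the B lineage or build and relay the signal of its first antigen receptor: Ebf1, Pax5, Cd79a, Cd79b, Vpreb1, Vpreb2, Vpreb3, Igll1 and Blnk. They were taken by symbol from a table of 20207 genes, in which 8 of the 9 had a row. Igll1, which encodes the lambda5 chain of the surrogate light chain, had no row, so its level was not analysed here and it appears only among the promoters. The members' levels were compared between wild-type LSK cells of the mouse and LSK cells that lack Brpf1, called Brpf1-null. LSK cells lack surface markers of mature blood lineages, carry Sca-1 and Kit, and hold the stem cells and multipotent progenitors. All samples were sorted from fetal liver at E14.5, and each pooled the cells of 4 embryos. Brpf1 encodes a chromatin protein that anchors histone acetyltransferase complexes, and the sources used here give neither the means of its removal nor the lineage antibodies of the sort.

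B-cell development starts when the factor EBF1, acting with E2A and FOXO1, opens the B-lineage programme, after which PAX5 holds cells in that lineage. In pro-B and pre-B cells, a rearranged immunoglobulin heavy chain pairs with a surrogate light chain made of VPREB and lambda5 proteins. The complex signals through the CD79A and CD79B chains, SYK-family kinases and the adaptor BLNK. At E14.5 the fetal liver is the main site of blood formation and of the first B-lineage cells.

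The labels describe 2 samples per genotype, arranged as 2 pairs with both genotypes in each. The tables of the 2 pairs held the same values for all 20207 genes, with 0 differences in either genotype, so each genotype enters with 1 library (n = 1). It cannot be told which pair the values come from, or whether they merge both. No difference given here has a replicate check, and no p-value was computed. Levels are in RPKM, reads scaled to gene length and library size. A fold is a plain ratio of RPKM, and a log2 change is log2 of (Brpf1-null RPKM + 1) over (wild-type RPKM + 1), which understates changes of low genes. Brackets hold 95% counting intervals of the folds, from read numbers estimated with transcript lengths and library sizes of about 23636334 (wild-type) and 22208722 reads (Brpf1-null). It covers counting error only, neither the spread between pools nor copies made by PCR. Brpf1 itself was at 2.59 RPKM in wild-type and 2.15 RPKM in Brpf1-null, a wild-type to Brpf1-null ratio of 1.20 (1.004 to 1.44). The sources used here do not say which exons the deletion takes out, so a level over the whole gene is a limited check of the genotype labels. Of the transcripts behind the sort, Kit was at 25.6 and 21.3 RPKM and Ly6a, which encodes Sca-1, at 10.6 and 9.51 RPKM. The list of 7 LSK genes also holds genes outside that gate. Of its 6 kept genes none was at least 1.5-fold lower and 1 was higher. Slamf1, the gene under the filter, was at 0.566 and 0.0335 RPKM, 16.9-fold lower (4.35 to 145), from about 36 and 2 reads.

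The members were lower in the Brpf1-null library, by amounts that ran from 1.53-fold for Cd79b to 145-fold for Vpreb1. The 145-fold value rests on about 2 Brpf1-null reads and on an unknown split of reads shared with the copy Vpreb2. Summed, the 2 copies were 35.5-fold lower. Of the 8 measured members, 7 had a mean of at least 1 RPKM, and all 7 of these were at least 1.5-fold lower with the pseudocount. Over the 9380 genes kept by the same filter, 9.42% were lower and 14.1% higher by that much, a split that became 12.8% and 10.2% with each library centred on its median. The 7 kept members had a median log2 change of -2.75, beside 0.04 over all genes kept. By plain ratio, 5 members (Cd79a, Vpreb1, Vpreb2, Vpreb3 and Ebf1) were at least 10-fold lower, a size reached by 11 (0.183%) of the 5995 genes that were above 0 in both libraries and reached 5 RPKM in one. Ordered by log2 change among those 5995 genes, Cd79a was the lowest, Vpreb3 at rank 2 and Vpreb1 at rank 3, with Ebf1 at rank 10, Vpreb2 at 11, Blnk at 96 and Cd79b at 538. In bulk RNA, fewer cells of a type and less RNA per cell cannot be told apart.

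**Figure D1:**
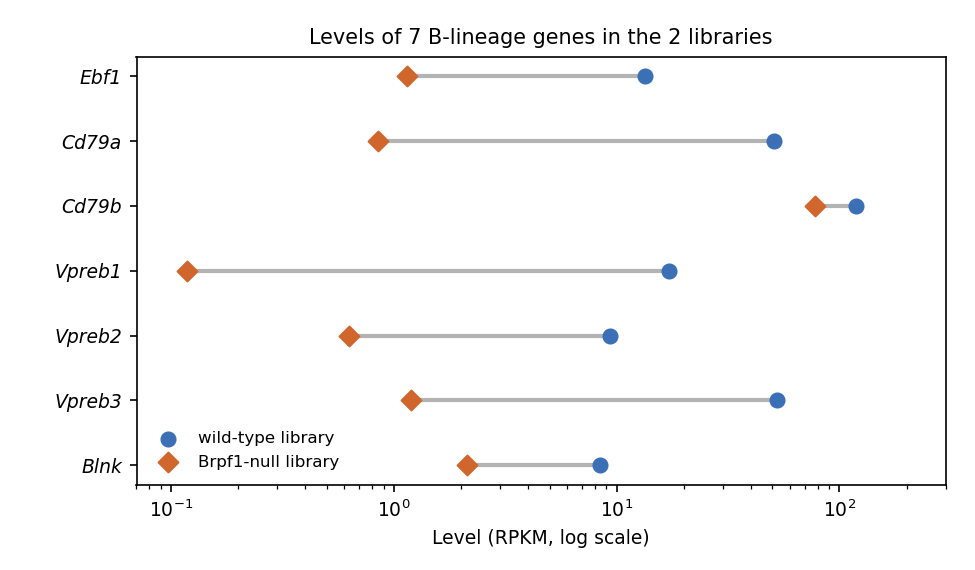
Level of each kept member in the wild-type library (circles) and the Brpf1-null library (diamonds), in RPKM on a log axis, with 1 library per genotype and no error bars. In the Brpf1-null library 6 of the 7 genes lie below 2.2 RPKM, and Cd79b stays at 77.8 RPKM.

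Among the specification factors, Ebf1, the pioneer factor of the lineage, was at 13.4 RPKM in wild-type and 1.14 RPKM in Brpf1-null. This was 11.7-fold lower (9.38 to 14.7), from about 1081 and 87 reads. The wild-type level placed Ebf1 at rank 3080 of all 20207 genes and the Brpf1-null level at rank 9044. Its paralogs gave no comparable signal: Ebf2 and Ebf3 were listed at 0 in both libraries, and Ebf4 at 0.158 RPKM in wild-type and 0 in Brpf1-null. Pax5, the commitment factor, was listed at 0 in both libraries. A listed 0 is not read as absence here, because both copies of alpha-globin, Hba-a1 and Hba-a2, and 1 of 80 ribosomal protein genes were also listed at 0. Of the PAX genes most like it, Pax2 was listed at 0 in both libraries and Pax8 at 0 and 0.410 RPKM.

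The signalling chains of the receptor differed in level and in change. Cd79a, which encodes the Ig-alpha chain, was at 50.6 RPKM in wild-type and 0.848 RPKM in Brpf1-null. It was 59.7-fold lower (41.5 to 92.3), from about 1742 and 27 reads. Its partner Cd79b, the Ig-beta chain, stood at 119 RPKM against 77.8 RPKM, 1.53-fold lower (1.45 to 1.61), from about 3693 and 2269 reads. The log2 change of Cd79b was -0.61, just past the 1.5-fold line, and it lay within 1.5-fold with a pseudocount of 5 RPKM, after quantile normalization and after scaling without the liver and red cell genes. Cd79b was 2.35 times as abundant per length as Cd79a in the wild-type library and 91.8 times in the Brpf1-null library. It therefore made up 44.0% of the members' summed RPKM in wild-type and 92.8% in Brpf1-null. That sum was 270 RPKM in wild-type and 83.9 RPKM in Brpf1-null, 3.22-fold lower. Without Cd79b it was 151 and 6.06 RPKM, 25.0-fold lower.

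The surrogate light chain genes Vpreb1 and Vpreb2 are near-identical copies, and a stretch of each reading frame shows how little separates them. Their frames of 429 bases, taken from GENCODE M21 transcripts, aligned without gaps and differed at 9 bases, an identity of 97.9%. The 120 bases that hold the most differences, frame positions 268 to 387 counted from the first base of the start codon, are given 5′ to 3′ with the 6 differing bases in capitals.
Vpreb1: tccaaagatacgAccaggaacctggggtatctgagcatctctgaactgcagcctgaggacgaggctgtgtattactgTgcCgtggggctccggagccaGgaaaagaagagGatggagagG
Vpreb2: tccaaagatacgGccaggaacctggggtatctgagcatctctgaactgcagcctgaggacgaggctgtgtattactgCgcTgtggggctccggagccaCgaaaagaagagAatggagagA
Over the whole frame the longest stretch shared without a difference was 196 bases, and 42.6% of all 50-base windows of Vpreb1 also occurred in Vpreb2. Reads from such windows cannot be assigned to 1 copy, and the sources used here do not say how the authors' counting treated them. Vpreb3 had a frame identity of 48.6% with Vpreb1 and shared no 50-base window with either copy.

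With that limit, Vpreb1 was at 17.2 and 0.118 RPKM, 145-fold lower (40.1 to 1212), from about 311 and 2 reads. Vpreb2 was at 9.35 and 0.629 RPKM, 14.9-fold lower (7.82 to 29.3), from about 168 and 11 reads. The 2 copies changed order, Vpreb1 being 1.84 times the level of Vpreb2 in wild-type and Vpreb2 5.32 times the level of Vpreb1 in Brpf1-null. Summed, they were at 26.5 and 0.747 RPKM, 35.5-fold lower (20.1 to 65.5), a value that depends little on how shared reads were split between them. Vpreb3, whose product is an endoplasmic reticulum protein of the B lineage and not a chain of the surface receptor, was at 52.5 and 1.196 RPKM, 43.9-fold lower (27.5 to 74.3). Blnk, the adaptor that links SYK to downstream enzymes, was at 8.43 and 2.12 RPKM, 3.97-fold lower (3.13 to 5.02).

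Folds differed among the members. Of the 21 pairs among the 7 kept members, 16 had counting intervals that did not overlap. The same share over pairs of all genes was not computed, and these intervals narrow as reads rise. The count is therefore not read as a trait of the members. The 5 pairs that overlapped were Cd79a with Vpreb1, Cd79a with Vpreb3, Vpreb1 with Vpreb3, Vpreb2 with Vpreb3, and Ebf1 with Vpreb2. The order from largest to smallest fold was Vpreb1, Cd79a, Vpreb3, Vpreb2, Ebf1, Blnk and Cd79b. Within counting error the first 3 could not be ordered, nor could Vpreb3 and Vpreb2, or Vpreb2 and Ebf1. For comparison, the hepatocyte genes summed to 2241 RPKM in wild-type and 595 RPKM in Brpf1-null, 3.76-fold lower, and the erythroid genes to 1696 and 422 RPKM, 4.02-fold lower. All 16 kept hepatocyte genes of 17 and all 15 erythroid genes were at least 1.5-fold lower, none of the 32 was listed at 0 in wild-type, and their part in the lower B-lineage values was not tested. Blnk lay beside these 2 sums, the 5 members named as at least 10-fold lower had intervals above both, and Cd79b had an interval below both.

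**Figure D2:**
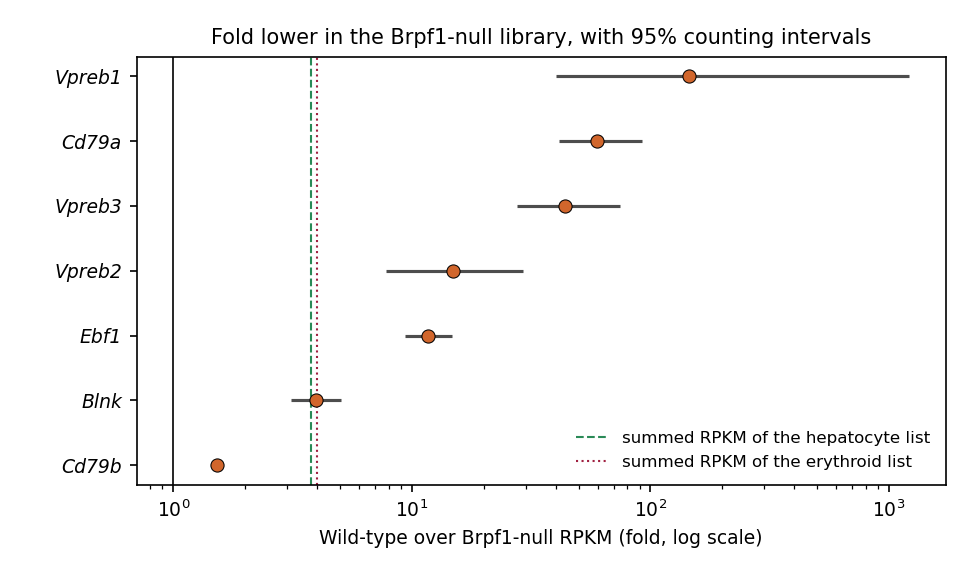
Fold of each kept member as wild-type over Brpf1-null RPKM on a log axis, with bars for the 95% counting interval and vertical lines for the fold of the summed hepatocyte and erythroid lists. The folds run from 1.53 for Cd79b to 145 for Vpreb1, and the 2 lines stand at 3.76 and 4.02. The Vpreb1 fold rests on about 2 Brpf1-null reads.

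**Figure D3:**
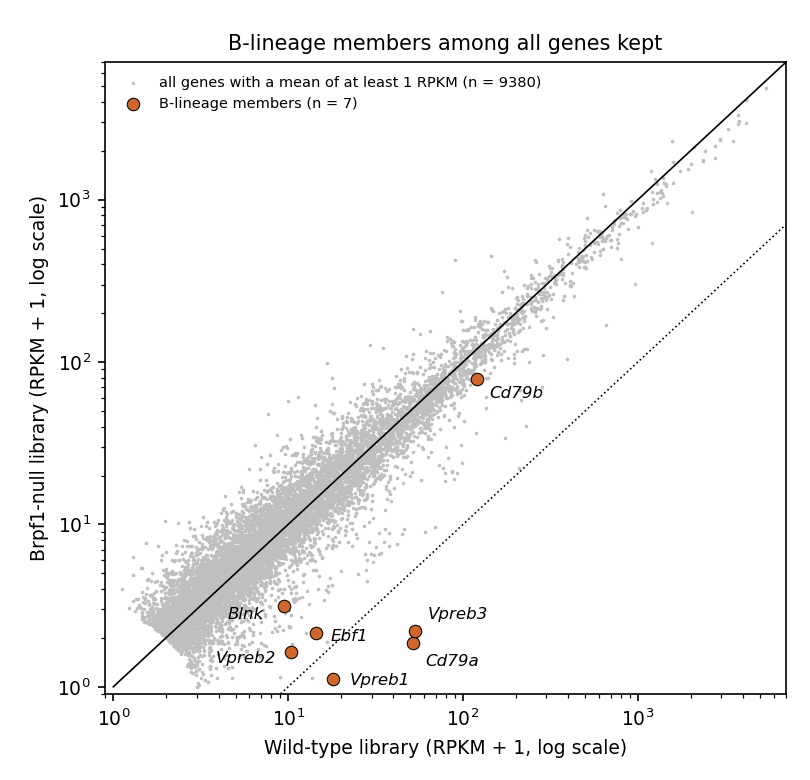
Brpf1-null against wild-type level (RPKM + 1, log axes) of all 9380 kept genes in grey and the 7 kept members in orange, with a solid line of equal levels and a dotted line of 10-fold lower. Cd79a, Vpreb3 and Vpreb1 lie below the dotted line, and Cd79b lies close to the line of equal levels.

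The members' promoters are shown because these genes were low together. RefSeq promoter windows of GRCm38.p6 matched 8 members by symbol, with 2 starts for Ebf1. The 250 bases before the start are printed for 5 of the lower genes, 5′ to 3′ on the gene's strand, with E-box matches (CANNTG, the motif class bound by E2A) and octamer matches (ATTTGCAT, bound by POU factors that the coactivator POU2AF1 joins) in capitals.
Cd79a, chr7:24897247-24897496, plus strand: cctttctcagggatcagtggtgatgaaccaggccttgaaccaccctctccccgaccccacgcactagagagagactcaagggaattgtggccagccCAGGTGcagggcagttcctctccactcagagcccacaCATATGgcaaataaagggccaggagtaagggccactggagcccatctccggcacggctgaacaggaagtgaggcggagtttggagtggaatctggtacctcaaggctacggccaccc
Vpreb1, chr16:16869256-16869505, minus strand: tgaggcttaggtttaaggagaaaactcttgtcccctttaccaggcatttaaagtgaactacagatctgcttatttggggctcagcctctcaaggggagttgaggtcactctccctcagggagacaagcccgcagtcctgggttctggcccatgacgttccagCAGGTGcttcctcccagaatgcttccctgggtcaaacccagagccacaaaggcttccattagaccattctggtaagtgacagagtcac
Vpreb2, chr16:17980315-17980564, plus strand: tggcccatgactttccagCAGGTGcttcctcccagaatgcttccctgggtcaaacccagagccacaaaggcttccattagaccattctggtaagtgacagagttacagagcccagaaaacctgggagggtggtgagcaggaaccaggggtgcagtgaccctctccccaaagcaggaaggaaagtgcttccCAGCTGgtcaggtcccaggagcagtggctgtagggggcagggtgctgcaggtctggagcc
Vpreb3, chr10:75948050-75948299, plus strand: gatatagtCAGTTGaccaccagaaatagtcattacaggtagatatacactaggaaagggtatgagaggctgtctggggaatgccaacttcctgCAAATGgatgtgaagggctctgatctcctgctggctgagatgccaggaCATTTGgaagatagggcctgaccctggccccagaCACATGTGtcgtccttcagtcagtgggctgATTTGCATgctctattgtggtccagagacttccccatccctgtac
Blnk, chr19:40994222-40994471, minus strand: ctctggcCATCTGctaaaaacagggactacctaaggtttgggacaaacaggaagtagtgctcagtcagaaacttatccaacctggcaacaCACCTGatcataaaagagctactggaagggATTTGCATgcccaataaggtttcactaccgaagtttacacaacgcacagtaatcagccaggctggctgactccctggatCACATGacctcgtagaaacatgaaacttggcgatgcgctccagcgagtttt

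The promoters of Vpreb1 and Vpreb2 are copies as well, set apart by the annotated start. Shifted by 144 bases, 104 of 106 overlapping bases were identical, so the same CAGGTG stands 88 bases before the start of Vpreb1 and 232 bases before that of Vpreb2. On both strands, CANNTG occurred in 8 of the 9 member promoters, beside 66.2% of all 32851 promoters in the table. The promoter without a match was the first Ebf1 start. It is not printed above, nor are the second Ebf1 start, Pax5 and Igll1. CAGGTG, one form of CANNTG, occurred in the promoters of Cd79a, Vpreb1, Vpreb2, Blnk and Igll1, and in 17.2% of all. ATTTGCAT occurred before Vpreb3 (45 bases before the start) and Blnk (130 bases), and in 1.6% of all. The palindromic EBF motif occurred in 0 of the 9 and in 0.779% of all, and its shorter core CCCNNGGG only before Igll1 (11.8% of all). Of the other 3 motifs searched, AAGGGA was before 4 members (19.5% of all), GAGGAA before 4 (23.3%) and TGTGGT before 3 (4614 of the 32851). All motifs here except CANNTG and the palindromic EBF motif were added after the sequences were seen, so their shares test no excess. The matches describe letters in a window and not binding.

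Of the non-member genes named here that lie beside the members in RefSeq order, only Chchd10 was at least 1.5-fold lower with the pseudocount. Over all genes kept, 9.42% were lower by that much. None of these non-member genes was 2-fold lower. Vpreb1, itself a member, lies beside Igll1, and the neighbours of Pax5 and Blnk are left out here. Both neighbours of Ebf1, Rnf145 and Clint1, were at least 1.5-fold higher with the pseudocount, beside 14.1% of all genes kept. They were at 5.33 and 10.03 RPKM and at 12.9 and 21.1 RPKM in wild-type and Brpf1-null. Beside Cd79a, the ribosomal protein gene Rps19 was at 2766 and 2146 RPKM and Arhgef1 at 9.59 and 7.88 RPKM. Top3b, next to Vpreb1, was at 4.09 and 5.44 RPKM, and Slc25a1 and Dgcr6, on either side of Vpreb2, at 11.4 and 13.8 RPKM and at 13.3 and 10.8 RPKM. Chchd10, near Vpreb3, was the lowest of these non-member genes by ratio, at 2.63 and 1.38 RPKM (1.91-fold, 1.27 to 2.91). Both neighbours of Cd79b, Gh and Scn4a, were listed at 0 in both libraries.

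Among the kept transcription factors around EBF1, 4 were lower, 3 higher and the others within 1.5-fold. Over all genes kept, 9.42% were lower and 14.1% higher by that much. Of 27 listed factors, 21 were kept, 14 of them within 1.5-fold, with a median log2 change of -0.09. Pou2af1 (OBF1), the octamer coactivator of B cells, was at 3.79 and 0.140 RPKM, 27.0-fold lower (12.3 to 75.7), from about 175 and 6 reads. Ets1 was 3.94-fold lower (3.21 to 4.91) and Foxo1, a partner in the start of the B programme, 3.01-fold lower (2.57 to 3.56). The fourth was Sfpi1, which encodes PU.1, at 4.63 and 2.46 RPKM. Tcfe2a, which encodes E2A, was at 8.53 and 8.69 RPKM, Ikzf1 at 21.7 and 20.2 RPKM, Bcl11a at 11.8 and 13.3 RPKM and Myb at 25.9 and 23.7 RPKM. The higher genes were Irf8 (3.53-fold, 3.15 to 3.96), Cebpa, a myeloid factor (3.64-fold, 2.90 to 4.59), and Id2, whose product blocks E proteins (2.06-fold, 1.94 to 2.20).

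Il7r, Jak3, Rag1, Rag2 and Hmgb2 were the lower genes of the IL-7 receptor and recombination lists. Il7r, the receptor chain on which B progenitors depend in the mouse, was at 8.53 and 1.85 RPKM, 4.61-fold lower (3.85 to 5.55), and its kinase gene Jak3 was 2.35-fold lower (1.89 to 2.95). Il2rg, the shared chain of that receptor, was at 121 and 118 RPKM, and Jak1 at 29.8 and 30.2 RPKM. Of the 13 kept genes of the IL-7 list these 2 were lower and 4 were higher, namely Stat5a (4.95-fold, 4.14 to 5.97), Stat5b (2.83-fold, 2.50 to 3.20), Ccnd2 (2.12-fold, 1.94 to 2.31) and the survival gene Bcl2 (2.04-fold, 1.66 to 2.53). Among 10 kept recombination genes of 12, 3 were lower and 0 higher. The recombinase genes Rag1 and Rag2 were 23.1-fold (13.7 to 41.3) and 5.75-fold lower (4.54 to 7.38), and the DNA-bending protein gene Hmgb2 1.75-fold lower (1.66 to 1.83). The end-joining genes Xrcc5, Xrcc6 and Dclre1c (Artemis) were at 9.44 and 7.498 RPKM, 53.6 and 51.4 RPKM, and 25.1 and 29.9 RPKM. Dntt, which adds untemplated bases at joins and is largely a gene of lymphocytes after birth, was listed at 0 in wild-type and at 0.130 RPKM in Brpf1-null.

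Among the signalling genes downstream of the receptor, more were higher than lower. Of 22 listed, 18 were kept, with 3 at least 1.5-fold lower, 7 higher and 8 within, and a median log2 change of 0.41. Of the lower genes, Btk was 2.17-fold lower (1.89 to 2.50) and Prkcb 3.11-fold lower (2.17 to 4.50). The 7 higher genes were led by the adaptors Grb2 (2.54-fold, 2.34 to 2.76) and Lat2 (2.35-fold, 2.08 to 2.65). The lipase gene Plcg2, which BLNK recruits, was at 19.5 and 39.2 RPKM, and Syk, the kinase that binds phosphorylated CD79 chains, at 12.3 and 19.6 RPKM. Vav1, Pik3cd and the phosphatase gene Ptpn6 made up the rest, between 1.74-fold and 1.80-fold higher. Many of these genes also serve myeloid and mast cell receptors.

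Of the 24 surface and effector genes of B cells, 22 had a row and 12 were kept, with 5 lower and 1 higher. The lower genes included Cd24a, a surface glycoprotein gene of immature B and red cells (4.30-fold lower, 3.93 to 4.72), Ly6d, which marks B-biased lymphoid progenitors (5.87-fold lower, 3.24 to 11.5), Spn, which encodes CD43 (1.79-fold lower, 1.63 to 1.96), and Cd93 (1.64-fold lower, 1.55 to 1.74). The invariant chain gene Cd74 was 1.86-fold higher (1.68 to 2.06). Genes of later B cells were mostly under the filter and did not share a direction. Ms4a1 (CD20) was at 0.123 and 0 RPKM, from about 9 and 0 reads. Cr2 was at 0.0272 and 0 RPKM (about 4 and 0 reads) and Fcrla at 0.460 and 0.217 RPKM (about 11 and 5 reads). Counting intervals of the wild-type to Brpf1-null fold included 1 for Cr2 (0.620 upward) and Fcrla (0.662 to 7.59). Cplx2, of the same list and under the filter, was at 0.661 and 0 RPKM, from about 77 and 0 reads. Cd22, an inhibitory receptor gene, was at 0.266 and 0.974 RPKM, 3.66-fold higher in Brpf1-null (2.20 to 6.05), and Fcer2a (CD23) at 0.0186 and 0.402 RPKM, from about 1 and 20 reads (21.6-fold higher, 3.40 to 882). Cd37, a tetraspanin gene that passed the filter, was at 59.2 and 65.6 RPKM. Ptprc, whose B220 isoform is not resolved by a value per gene, was at 14.4 and 17.2 RPKM.

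Markers of other lymphoid cells did not move as a block with the members. Of 18 T and NK cell genes 8 were kept, 1 lower (Gata3, 1.90-fold, 1.42 to 2.54) and 3 higher (Cd4, Cd7 and Klrd1), and their summed level was 31.7 RPKM in wild-type and 38.7 RPKM in Brpf1-null. Cd3e, Cd2 and Gzmb were listed at 0 in both libraries. Of 9 plasmacytoid dendritic cell genes 6 were kept, with Siglech (7.67-fold, 4.46 to 15.4) and Ccr9 (6.83-fold, 5.46 to 8.60) lower, and Bst2, Irf7 and Irf8 higher. Of 14 kept macrophage and granulocyte genes, 6 were lower and 4 higher, with sums of 810 and 1026 RPKM.

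**Figure D4:**
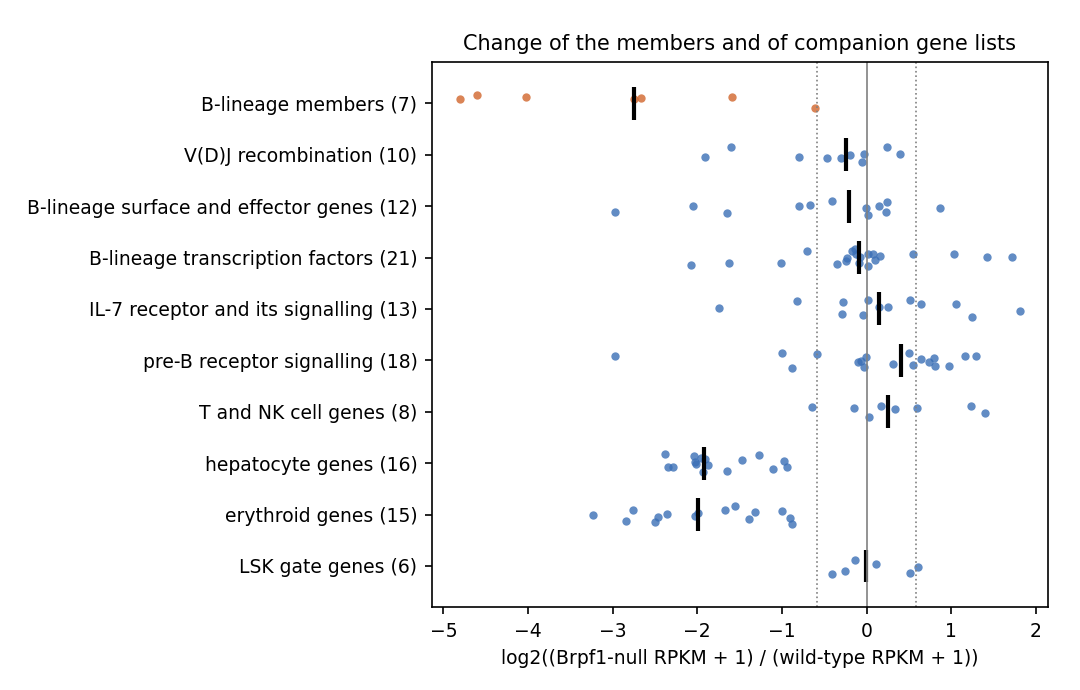
The log2 change of each kept gene (points) and the median of each list (black bars), for the 7 members and 9 companion lists, with the number of genes in brackets and dotted lines at 1.5-fold. The members have a median of -2.75, the pre-B receptor signalling list a median of 0.41, and the hepatocyte and erythroid lists medians of -1.92 and -1.99.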

How the data were processed

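LSK cells were profiled by oligo-dT-primed RNA sequencing. Reads were aligned with TopHat to mm9, per the submitters' processing notes. For the annotation and the counting program, nothing is given in those sources. Each pair has 1 table, in which the authors deposited RPKM values (first pair) or FPKM values (second pair), per the file headers, and beside them the wild-type-to-mutant ratio and its log2. Both tables held identical values, so they were read as 1 library per genotype, called RPKM, and the deposited fold changes were not used.

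The planned limma fit and its replicate block needed 2 libraries per genotype and were not run. The filter kept 9380 of 20207 genes, those whose mean reached 1 RPKM. Changes used a pseudocount of 1 RPKM. Library sizes were those at which low values became whole reads given GENCODE M21 coding transcript lengths: 66.9% of 535 wild-type values and 69.3% of 538 Brpf1-null values up to 8 reads came within 0.1 of a whole read, against 27.5% and 29.7% with sizes raised by 5%. Tested on simulated data, this recovered known sizes. Reads per gene are therefore estimates. Fold intervals are exact Clopper-Pearson intervals of the Brpf1-null share of reads (SciPy 1.17.1).

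The members and the 13 companion lists were chosen with earlier results of these data known. Genes named from the lists are up to 4 per list, by size of log2 change, among those that reach 5 RPKM in 1 library, members of counts of 5 or fewer, and, chosen after their values were seen, Tcfe2a, Ikzf1, Bcl11a, Myb, Il2rg, Jak1, Xrcc5, Xrcc6, Dclre1c, Dntt, Plcg2, Syk, Vav1, Pik3cd, Ptpn6, Prkcb, Ly6d, Cd93, Ms4a1, Cr2, Fcrla, Cd22, Fcer2a, Cd37, Ptprc and the neighbouring genes. Slamf1 and Cplx2 were also named after their values were seen. Motifs other than the palindromic EBF motif and CANNTG were added after the sequences were seen. Some genes that these rules name are not reported here.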

Additional observations from a re-analysis of the deposited data

How the results depend on the processing

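The direction of every kept member held under each alternative run, and the count of members at least 1.5-fold lower stayed at 6 or 7, with Cd79b the member that dropped out at 2-fold, with a pseudocount of 5 RPKM, after quantile normalization and after scaling without the hepatocyte and erythroid lists. The median log2 change of the members moved from -2.75 to -3.70 with a pseudocount of 0.1 RPKM, -1.58 with 5 RPKM, -3.38 under a filter at a mean of 5 RPKM and also without Cd79b, -3.36 with Vpreb1 and Vpreb2 summed, -2.86 with each library centred on its median and -2.89 with the trend on transcript GC content removed. Centring shifted all log2 changes by -0.11, and by scaling the sign of Tcfe2a, Il2rg, Jak1, Xrcc6, Cd37, Ms4a1 and Cr2 differed. The fold of the summed level moved from 3.22 to 25.0 without Cd79b, by construction of the sum. Removal of the GC trend, the setting without Cd79b, and the member folds under the scaling without hepatocyte and erythroid lists were chosen after seeing the data. No paired analysis was possible because the tables of the 2 pairs hold the same values, and for the same reason no replicate could be left out. Depth limits Vpreb1 most, with about 2 Brpf1-null reads.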

Other observations

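The 11 genes at least 10-fold lower included, outside the B lineage lists, the platelet chemokine gene Ppbp (12.6 and 0.125 RPKM), the chemokine receptor gene Darc (15.7 and 0.894 RPKM), the radial spoke gene Rsph9 (5.88 and 0.525 RPKM) and Bclp2 (11.7 and 1.15 RPKM). Among genes with at least 5 RPKM in wild-type outside the lists, those nearest to the members' median log2 change of -2.75, over 2 libraries, included Serpina1e (-2.65), Bclp2 (-2.57) and the red cell membrane gene Rhag (-2.42). Lef1, a lymphoid factor under the filter, was at 0.791 RPKM in wild-type and listed at 0 in Brpf1-null.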
